A study of Mus musculus with 4 samples.

Results

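The metalloproteinases and their inhibitors were examined in RNA from Lin-LEPR+ skeletal stem/progenitor cells (SSPCs) of the bone marrow. Members were taken by gene symbol: every numbered matrix metalloproteinase (Mmp), Adam, Adamts and Adamts-like (Adamtsl) gene, the tissue inhibitors Timp1 to Timp4, and Reck. This rule gave 84 of 37310 annotated genes, of which 23 were Mmp, 32 Adam, 19 Adamts and 5 Adamtsl genes, and 5 were the Timp genes with Reck. Wild-type male C57Bl/6 mice were compared at 3 months of age (mature) and at 24 months of age (elderly). There were 2 libraries per age. RNA was selected by poly(A) according to the methods, with exceptions that were processed as total RNA. The label of 1 exception gives an age in weeks that is close to 3 months. It is not stated whether a mature library was among these exceptions. If so, age and library type cannot be told apart in these data. The methods describe RNA pooled over 3 or 4 mice in a group, whereas the sample titles number single mice, so it is not clear whether a library is a pool or 1 mouse. According to the labels the RNA came from whole bone marrow, but the study's methods describe cells depleted of Ter119, CD31 and CD45 and sorted for LEPR.

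Metalloproteinases of these families hold a zinc ion in the active site with histidines and cut proteins outside the cell or at its surface. Mmp enzymes are made as inactive proenzymes and cleave collagens, gelatins and other matrix proteins. Adam proteins are membrane-anchored, and those with an active site shed the outer parts of growth factors, cytokines and receptors. Adamts enzymes are secreted and process procollagens or cleave proteoglycans such as aggrecan and versican, and Adamtsl proteins share their other domains but have no catalytic domain. Timp proteins and the membrane-anchored Reck inhibit many of these enzymes. In bone, they take part in matrix removal by osteoclasts and osteoblasts, in replacement of growth plate cartilage and in the movement of cells out of the marrow.

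The zinc-binding site is the sequence these enzymes share, and the stretch of 33 bases that codes for it is shown for the 9 members with such a site whose level differed between the ages. Capitals mark the codons of the first histidine, the catalytic glutamate next to it and the other 2 histidines. The sequences were read from GENCODE M1 coding transcripts and are identical to the exons of NCBI Build 37 (mm9).
Adamts5: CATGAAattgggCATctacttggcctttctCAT
Adamts2: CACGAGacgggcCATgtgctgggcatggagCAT
Adamts15: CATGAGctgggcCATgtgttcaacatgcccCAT
Mmp2: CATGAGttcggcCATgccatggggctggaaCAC
Mmp9: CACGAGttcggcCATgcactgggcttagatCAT
Mmp8: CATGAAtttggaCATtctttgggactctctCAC
Mmp25: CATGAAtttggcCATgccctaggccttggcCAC
Mmp16: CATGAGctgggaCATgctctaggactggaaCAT
Adam8: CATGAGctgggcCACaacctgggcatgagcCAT
They lie at chr16:85878260-85888071 (Adamts5), chr11:50588905-50589636 (Adamts2), chr9:30718840-30719275 (Adamts15), chr8:95363178-95363210 (Mmp2), chr2:164776633-164776665 (Mmp9), chr9:7563086-7563118 (Mmp8), chr17:23769810-23769842 (Mmp25), chr4:17978895-17978927 (Mmp16) and chr7:147173792-147173824 (Adam8), on the strand given for each gene with its values. The sites of the gelatinases Mmp2 and Mmp9 were identical at 25 of 33 bases, and those of Mmp8 and Adamts2 at 16 of 33. The sites of Adamts5, Adamts2 and Adamts15 are each divided over 2 exons, and those of the other 6 lie in 1 exon. In the whole list a match to the pattern searched was found in 23 of 23 Mmp, 19 of 32 Adam and 18 of 19 Adamts genes. It was found in none of the 5 Adamtsl genes or of the 5 Timp and Reck genes. The pattern allowed only glycine, asparagine or aspartate at 1 place, so a gene without a match may still have a site. The Adamts gene without a match was Adamts8, which is counted below among the members that cleave aggrecan and related proteoglycans.

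Library totals were 11930137 and 11730849 counts for the mature mice and 10472117 and 15650518 for the elderly mice. Levels are given as CPM, the counts scaled to 1000000 counts of the normalised library, and 3 counts correspond to between 0.195 and 0.270 CPM. Lepr was at 6419 and 5665 CPM in mature and at 4121 and 5708 CPM in elderly mice, and Cxcl12, the stromal chemokine, was at 11723 and 13713 CPM against 7208 and 9216 CPM. Of 12 markers of LEPR+ stroma, 0 passed edgeR's quasi-likelihood test or DESeq2 and 4 were lower at an unadjusted p under 0.05. All 12 had a negative log2 fold change, and their summed level was 40372 and 41357 CPM in mature against 25835 and 34911 CPM in elderly libraries. Markers of other marrow cells were also detected. Of 17 neutrophil markers tested, 8 rose and 0 fell, and their sum was 2170 and 1241 CPM in mature and 4724 and 4484 CPM in elderly libraries. Of 10 macrophage markers 4 rose, of 7 erythroid markers 4, of 5 plasma cell markers 2 and of 9 B-lineage markers 1. Of 7 fibroblast markers 2 rose and of 7 endothelial markers 1, and no marker of these lists was called lower. Over all genes tested by edgeR, 1.94% were called higher and 0.423% lower. The osteoblast and chondrocyte lists each had 1 marker that rose and 1 that fell. The osteoblast sum was 6841 and 6159 CPM in mature against 1709 and 3668 CPM in elderly libraries. That of the chondrocyte list was 31.7 and 66.4 CPM against 22.9 and 13.6 CPM. In edgeR's test 0 markers passed among 4 of osteoclasts, 7 of megakaryocytes and 7 of pericytes and smooth muscle. At an unadjusted p under 0.05, 1 osteoclast marker and 1 pericyte or smooth muscle marker were higher, which DESeq2 called, and 0 megakaryocyte markers differed by either tool. Among the defining markers, Calcr, Cd79b, Col9a1 and Myh11 were at 0 in every library, and of these Myh11, Calcr and Cd79b had only 39, 101 and 236 bases at which reads were counted. In bulk RNA, fewer cells of a type and less RNA per cell cannot be told apart.

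Of the 84 members, 55 had more than 3 counts in at least 1 library, 29 had 3 counts or fewer in every library, and 12 of these had 0 counts in all. The filter on low counts (more than 2 over the 4 libraries) kept 62 members. By edgeR's quasi-likelihood test at a Benjamini-Hochberg adjusted p under 0.05 over 22214 genes, 7 members rose in elderly vs. mature mice, against 1.94% of all genes tested, and 3 fell, against 0.423%. Those that rose were Adamts5, Mmp9, Mmp2, Mmp25, Mmp8, Adam8 and Adamtsl3, and those that fell were Adamts2, Adamts15 and Mmp16. All 10 averaged 1 CPM or more, a level that 46 of the tested members reached. Tested members were more abundant than genes at large, with a median of 5.60 CPM against 2.72 CPM for all genes tested. In 12 of the tested members the elderly libraries were both above the mature ones and in 18 both below, against 22.0% and 18.9% of all genes tested, and the 10 members that passed the test were among these.

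With 2 libraries per age the calls depended on the libraries used. Without elderly replicate 1 or without elderly replicate 2, edgeR's test called 0 genes of any kind (0.00%), while 7 and 6 members were higher and 5 and 9 lower at an unadjusted p under 0.05. Without mature replicate 1, 6 members were called higher, against 2.13% of all genes tested, and 0 lower, against 0.277%, and without mature replicate 2, 2 were called higher, against 1.44%, and 2 lower, against 0.435%. All 10 members kept the sign of their change in each of these fits. In these members the ages did not overlap, so leaving out 1 library could hardly change the sign. The adjusted p values given below for a fit without 1 elderly library were the same for every called member. They therefore describe that fit and not a single gene. A permutation test of 2 libraries against 2 cannot give a p below 0.333.

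**Figure D1:**
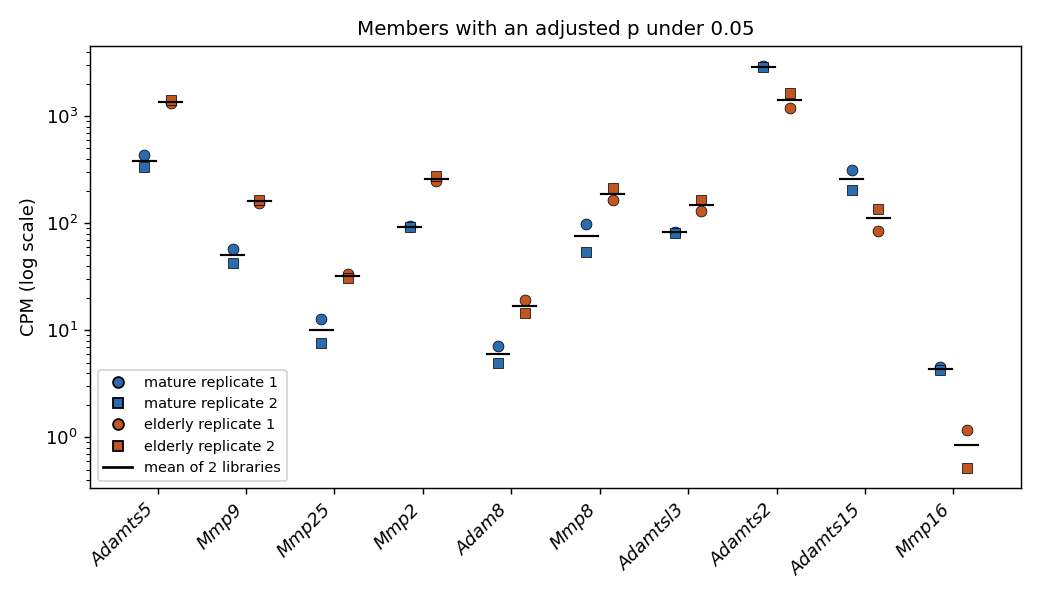
Level in CPM (log scale) of the 10 members that passed the test, with 1 point per library and a line at the mean of the 2 libraries of an age. In each gene the 2 elderly libraries lie wholly above or wholly below the 2 mature libraries, from Adamts5 (384 to 1369.9 CPM in the mean) to Mmp16 (4.36 to 0.846 CPM).

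The Adamts family held members that changed in both directions. Adamts5, the main aggrecan-cleaving enzyme of mouse cartilage, had 4978 and 3903 counts in mature mice and 14785 and 21619 in elderly mice, or 431, 336, 1333 and 1407 CPM. The 2 elderly libraries were far above the 2 mature ones, and the difference between the ages exceeded the spread within either. Adamts5 (chr16:85858415-85901370, minus strand) rose 3.57-fold, from 384 ± 66.7 to 1369.9 ± 52.4 CPM (mean ± SD, n = 2), with a log2 fold change of 1.84 ± 0.20 (SE, adjusted p = 0.0010 by edgeR). All of its counts belong to the single annotated transcript. Without mature replicate 2 the log2 fold change was 1.64 and the adjusted p 0.0502, and without either elderly library the adjusted p was 0.611 and 0.605. Adamts1, another proteoglycan-cleaving enzyme, lies 55056 bases from Adamts5 on the same strand. Its level was 1257 and 1287 CPM in mature and 839.5 and 1057 CPM in elderly libraries, lower in both elderly libraries, with a log2 fold change of -0.42 (95% interval -0.84 to -0.01) and an adjusted p of 0.439, so that it did not pass the test.

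Adamts2, the procollagen N-proteinase that trims collagen precursors before fibrils form, was the member with the most counts. It had 33991 and 33394 counts in mature mice and 13152 and 25200 in elderly mice, or 2941, 2878, 1186 and 1640 CPM. The mature libraries were close together, and both elderly libraries were lower and further apart. Adamts2 (chr11:50415586-50621075, plus strand) fell from 2910 ± 44.2 to 1413 ± 321 CPM (mean ± SD, n = 2), with a log2 fold change of -1.04 ± 0.20 (SE, adjusted p = 0.0206 by edgeR). Without mature replicate 1 or mature replicate 2 the adjusted p was 0.383 and 0.310, and without either elderly library 0.611 and 0.605. The other procollagen-processing members, Adamts3 and Adamts14, did not pass the test. The summed level of the 3 enzymes was 3084 and 3009 CPM in mature against 1280 and 1764 CPM in elderly libraries, and all 3 had a negative log2 fold change, between -1.04 and -0.32.

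Adamts15, which also cleaves aggrecan and versican, had 3625 and 2368 counts in mature mice and 946 and 2098 in elderly mice, or 314, 204, 85.3 and 137 CPM. The elderly values were below both mature ones, with a wide spread at each age. Adamts15 (chr9:30706740-30730037, minus strand) fell from 259 ± 77.5 to 111 ± 36.2 CPM (mean ± SD, n = 2), with a log2 fold change of -1.22 ± 0.26 (SE, adjusted p = 0.0328 by edgeR). Without mature replicate 1, the higher of the mature libraries, the log2 fold change was -0.87 and the adjusted p 0.333. Among the 7 members that cleave aggrecan and related proteoglycans, 1 rose (Adamts5), 1 fell (Adamts15) and 5 did not pass, and their summed level was 2102 and 1915 CPM in mature and 2360 and 2707 CPM in elderly libraries. The make-up of the family differed between the ages. Adamts5 took 8.12% and 6.67% of all Adamts CPM in mature and 35.6% and 30.7% in elderly libraries, Adamts2 took 55.5% and 57.1% against 31.6% and 35.8%, and Adamts1 held between 22.4% and 25.5% in all 4. The summed Adamts level was 5174 ± 183 CPM in mature and 4164 ± 588 CPM in elderly mice (SD, n = 2).

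**Figure D2:**
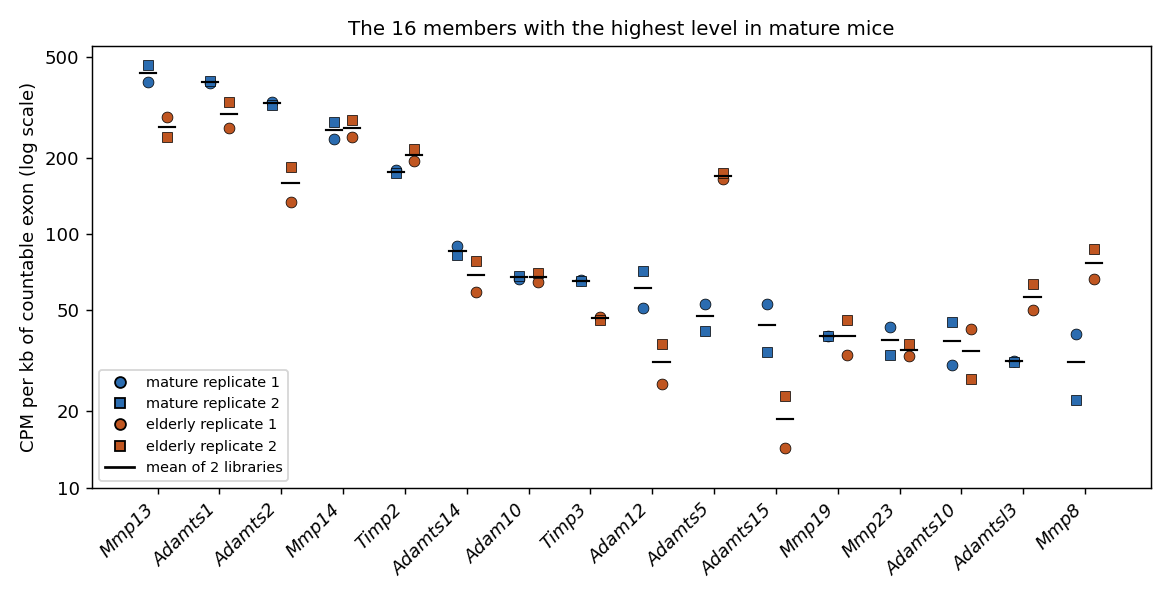
Level in CPM per kb of countable exon (log scale) of the 16 members with the highest mean level in mature mice, with 1 point per library and a line at the mean of 2 libraries. On this scale Mmp13, Adamts1 and Adamts2 lead in mature mice, and Adamts5, at place 10 in mature mice, is near Adamts2 in elderly mice.

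Levels of different genes were compared per kb of the exon sequence at which reads could be counted. This was done for the 73 members with at least 500 such bases. The bases were summed over all annotated transcripts of a gene, also those with few counts, so values and places depend on this choice. For Adamts2, 97.9% of counts lay on 6817 of 8887 such bases, and for Timp3, 86.1% lay on 2436 of 5858. In mature mice the order was Mmp13 (396 and 464 CPM per kb), Adamts1 (393 and 402), Adamts2 (331 and 324), Mmp14 (237 and 276) and Timp2 (178 and 173). Mmp13 and Adamts1 overlapped in that order, and the libraries of each later gene lay below those of the gene before it. In elderly mice the leading genes were Adamts1 (262 and 330 CPM per kb), Mmp13 (288 and 241), Mmp14 (241 and 283), Timp2 (194 and 216), Adamts5 (165 and 174) and Adamts2 (133 and 185). Neighbours in the elderly order overlapped, except that both libraries of Mmp14 were above both of Timp2 and both of Timp2 above both of Adamts5. On this scale Adamts5 moved from place 10 to 5, Mmp2 from place 17 to 7 and Mmp9 from place 19 to 8.

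Both gelatinases, the Mmp enzymes that digest denatured collagen, rose. Mmp2, gelatinase A of mesenchymal cells, had 1078 and 1062 counts in mature mice and 2735 and 4248 in elderly mice, or 93.3, 91.5, 247 and 276 CPM. The elderly libraries were well above the mature ones, which differed little. Mmp2 (chr8:95351227-95377316, plus strand) rose 2.83-fold, from 92.4 ± 1.22 to 262 ± 21.1 CPM (mean ± SD, n = 2), with a log2 fold change of 1.50 ± 0.19 (SE, adjusted p = 0.00209 by edgeR). Mmp9, gelatinase B of neutrophils and osteoclasts, had 664 and 497 counts in mature mice and 1713 and 2548 in elderly mice, or 57.5, 42.8, 154 and 166 CPM. It was again higher in both elderly libraries. Mmp9 (chr2:164766280-164781350, plus strand) rose 3.19-fold, from 50.1 ± 10.3 to 160.1 ± 8.06 CPM, a log2 fold change of 1.67 ± 0.21 (SE, adjusted p = 0.00209 by edgeR). Mmp2 and Mmp9 were the only members called both without mature replicate 1 and without mature replicate 2, whereas without elderly replicate 1 or 2 their adjusted p was 0.611 and 0.605. Their summed level was 151 and 134 CPM in mature and 401 and 442 CPM in elderly libraries.

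Of the collagenases, which cut intact fibrillar collagen, Mmp8 and Mmp13 were detected. Mmp8, the collagenase of neutrophil granules, had 1143 and 631 counts in mature mice and 1816 and 3296 in elderly mice, or 98.9, 54.4, 164 and 215 CPM. The elderly values were both higher, and the libraries of each age differed widely. Mmp8 (chr9:7558429-7568486, plus strand) rose 2.47-fold, from 76.6 ± 31.5 to 189 ± 35.9 CPM (mean ± SD, n = 2), with a log2 fold change of 1.30 ± 0.27 (SE, adjusted p = 0.0267 by edgeR). Without mature replicate 2 the log2 fold change was 0.91 and the adjusted p 0.277. Mmp13, the collagenase of osteoblasts and hypertrophic chondrocytes, was at 1059 and 1240 CPM in mature and 771 and 645 CPM in elderly libraries. Both elderly libraries were lower, with a log2 fold change of -0.70 (95% interval -1.12 to -0.28), but the adjusted p of 0.0995 missed the threshold. DESeq2 gave Mmp13 an adjusted p of 0.0171. Mmp8 and Mmp13 lie 275095 bases apart in the cluster of 10 Mmp genes on chromosome 9, and none of the other 8 had more than 11 counts in a library.

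Among the 6 membrane-type Mmp genes, 1 rose, 1 fell and 4 did not pass. Mmp25, a membrane-anchored enzyme of neutrophils, had 146 and 89 counts in mature mice and 373 and 473 in elderly mice, or 12.6, 7.67, 33.6 and 30.8 CPM. Its elderly values were both higher. Mmp25 (chr17:23766425-23782236, minus strand) rose 3.17-fold, with a log2 fold change of 1.66 ± 0.29 (SE, adjusted p = 0.0111 by edgeR), and without mature replicate 2 its adjusted p was 0.0612. Mmp16, which can activate the proenzyme of Mmp2, was low, with 52 and 49 counts in mature mice and 13 and 8 in elderly mice, or 4.50, 4.22, 1.17 and 0.521 CPM. It was lower in both elderly libraries. Mmp16 (chr4:17780040-18046292, plus strand) had a log2 fold change of -2.39 ± 0.54 (SE, adjusted p = 0.0383 by edgeR), and its adjusted p was 0.0790 without mature replicate 1. Mmp14, the main membrane-type collagenase of stromal cells and an activator of the proenzymes of Mmp2 and Mmp13, was at 616 and 717 CPM in mature and 627 and 734 CPM in elderly libraries. The ages overlapped, and the interval of the log2 fold change was -0.38 to 0.44 around 0.03 (adjusted p = 0.979). The summed level of all Mmp genes was 2245 ± 143 CPM in mature and 2221 ± 80.8 CPM in elderly mice (SD, n = 2).

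**Figure D3:**
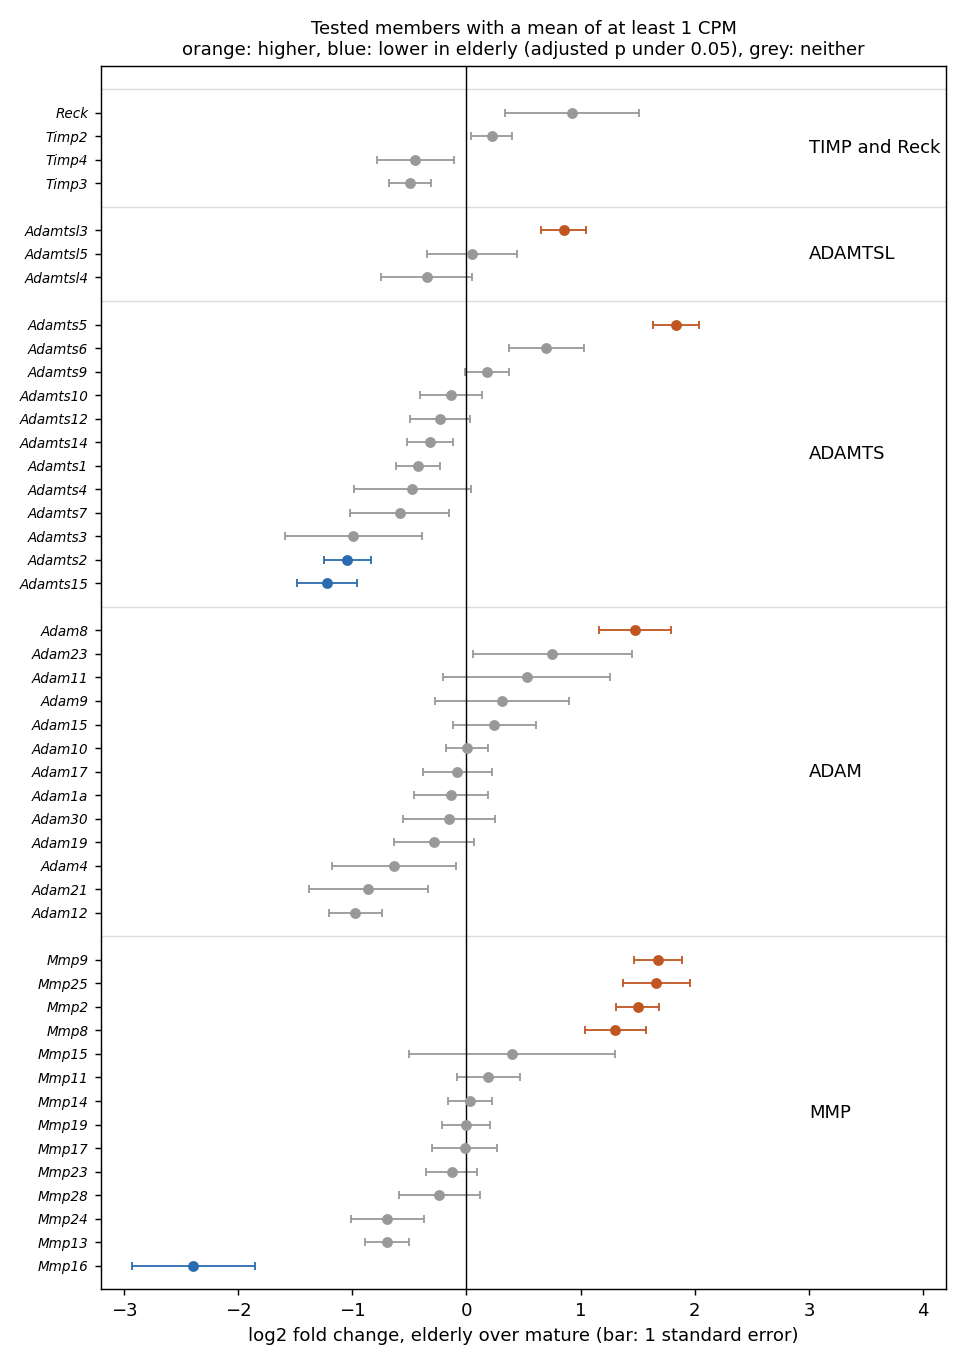
Log2 fold change of elderly over mature mice, with 1 standard error, of the 46 tested members with a mean of at least 1 CPM, grouped by family. Members that passed the test are orange (7 higher) or blue (3 lower), and the grey members include Mmp13 at -0.70 and Adam12 at -0.97.

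In the Adam family 1 of 19 tested members changed. Adam8, a surface protein of leukocytes and osteoclasts, had 82 and 58 counts in mature mice and 212 and 225 in elderly mice, or 7.09, 4.999, 19.1 and 14.6 CPM. The ages did not overlap. Adam8 (chr7:147164831-147178461, minus strand) rose 2.78-fold, a log2 fold change of 1.48 ± 0.32 (SE, adjusted p = 0.0313 by edgeR), and without mature replicate 2 the adjusted p was 0.148. Its counts came from transcripts annotated as retained-intron or processed, since its coding transcripts had at most 3 bases of their own, so they do not measure the coding transcripts directly. Adam12, which is expressed in mesenchymal tissues, was at 201 and 281 CPM in mature and 101 and 145 CPM in elderly libraries. The elderly libraries were lower, with a log2 fold change of -0.97 (95% interval -1.48 to -0.46), and the adjusted p of 0.0542 by edgeR just missed the threshold, while DESeq2 gave 0.00666. The sheddases Adam10, which cleaves Notch receptors, and Adam17, which releases tumour necrosis factor, had overlapping ages. Adam10 was at 147 and 152 CPM against 143 and 155 CPM, and the 95% interval of its log2 fold change was -0.40 to 0.40. Adam17 was at 14.4 and 19.0 CPM against 19.4 and 12.2 CPM, and 85.8% of its counts were from a retained-intron transcript. The 13 Adam genes with no match to the zinc site had 6 members tested, of which 0 passed by edgeR or DESeq2 and 0 had an unadjusted p under 0.05. Of the 32 Adam genes, many of which are known from testis, 17 were at 3 counts or fewer in every library.

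Of the 5 Adamtsl genes, Adamtsl3 accounted for nearly all of the counts, and with Adamtsl5 for 96.2% of the summed CPM. These shares depend on the countable bases, of which Adamtsl3 had 2614 and Adamtsl4 217. Per kb of such bases the mean over all libraries was 44.1 CPM for Adamtsl3 and 17.4 CPM for Adamtsl4. Adamtsl3, a matrix glycoprotein without enzyme activity, had 958 and 948 counts in mature mice and 1453 and 2546 in elderly mice, or 82.9, 81.7, 131 and 166 CPM. It was higher in both elderly libraries, and the mature libraries were nearly equal. Adamtsl3 (chr7:89484204-89762960, plus strand) rose 1.80-fold, from 82.3 ± 0.831 to 148 ± 24.5 CPM (mean ± SD, n = 2), with a log2 fold change of 0.85 ± 0.20 (SE, adjusted p = 0.0473 by edgeR). Without mature replicate 1 or 2 its adjusted p was 0.329 and 0.347. Adamtsl4 and Adamtsl5 had log2 fold changes of -0.35 and 0.05 and did not pass. All counts of Adamtsl5 came from retained-intron or processed transcripts, and 77.8% of those of Adamtsl4 from 1 processed transcript. These values do not measure the coding transcripts directly.

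None of the 4 inhibitors tested passed by edgeR or DESeq2, and only Timp3 had an unadjusted p under 0.05. Timp2, which also helps Mmp14 to activate the proenzyme of Mmp2, was at 600.5 and 583 CPM in mature and 654 and 726 CPM in elderly libraries. Both elderly libraries were slightly higher, and the interval of the log2 fold change was -0.17 to 0.61 around 0.22 (adjusted p = 0.724). Timp3, the matrix-bound inhibitor that also acts on Adam17 and the aggrecan-cleaving Adamts enzymes, was at 387 and 381 CPM in mature and 277 and 268 CPM in elderly libraries. Its libraries were close together at each age and lower in elderly mice, with a log2 fold change of -0.49 (95% interval -0.89 to -0.10) and an adjusted p of 0.267. Timp4 was at 52.7 and 32.9 CPM against 20.1 and 42.4 CPM, with overlapping ages. Reck had 10 and 16 counts in mature and 29 and 26 in elderly libraries, a log2 fold change of 0.92 and an adjusted p of 0.652, on 407 countable bases. Most of these counts came from processed transcripts. The coding transcript of Reck had 3 and 3 counts in mature and 6 and 7 in elderly libraries, on 61 bases. Timp1 had 1 count in all, but only 60 of the 883 bases of its longest transcript could be counted, so its level could not be read. The summed level of the inhibitors was 1019.9 ± 30.0 CPM in mature and 996 ± 59.8 CPM in elderly mice (SD, n = 2).

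By family, the median log2 fold change of tested members was 0.014 for Mmp, -0.070 for Adam, -0.45 for Adamts, 0.047 for Adamtsl, and -0.11 for the Timp genes with Reck, against -0.0059 for all genes tested. The Adamts median stayed between -0.60 and -0.34 under every alternative tried, whereas each of the other medians changed sign under at least 1 alternative. A median over tested members includes genes of a few counts and is given as a description.

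Because the markers of neutrophils were higher in elderly libraries, the members that rose were set beside the summed level of 2 marker lists in each library, a ratio chosen after the values had been seen. Per 100 CPM of the neutrophil list, Mmp8 was at 4.56 and 4.38 in mature and 3.47 and 4.78 in elderly libraries, and Adam8 at 0.327 and 0.403 against 0.405 and 0.327, so that the ages overlapped. Mmp9 overlapped as well, at 2.65 and 3.45 against 3.27 and 3.70, while Mmp25 was at 0.582 and 0.618 against 0.712 and 0.686. On the same scale Adamts5 was at 19.8 and 27.1 against 28.2 and 31.4, Mmp2 at 4.30 and 7.37 against 5.22 and 6.16, and Adamtsl3 at 3.82 and 6.58 against 2.77 and 3.69. Relative to that list, Mmp25 and Adamts5 were thus higher in both elderly libraries, Mmp2 overlapped and Adamtsl3 was lower. Per 100 CPM of the LEPR+ stroma list, Adamts5 was at 1.07 and 0.813 in mature and 5.16 and 4.03 in elderly libraries, Mmp2 at 0.231 and 0.221 against 0.954 and 0.792, and Adamtsl3 at 0.205 and 0.198 against 0.507 and 0.475. All 3 were higher in both elderly libraries, as they had to be, since they had risen and the list sum was lower in both. Mmp14, whose own ages overlapped, was at 1.53 and 1.73 in mature and 2.43 and 2.10 in elderly libraries on that scale. Adamts2 was at 7.28 and 6.96 against 4.59 and 4.70 on that scale, and Adamts1 lay between 3.03 and 3.25 in all 4 libraries. The part of neutrophils and other cells in the changes of these members was not tested.

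**Figure D4:**
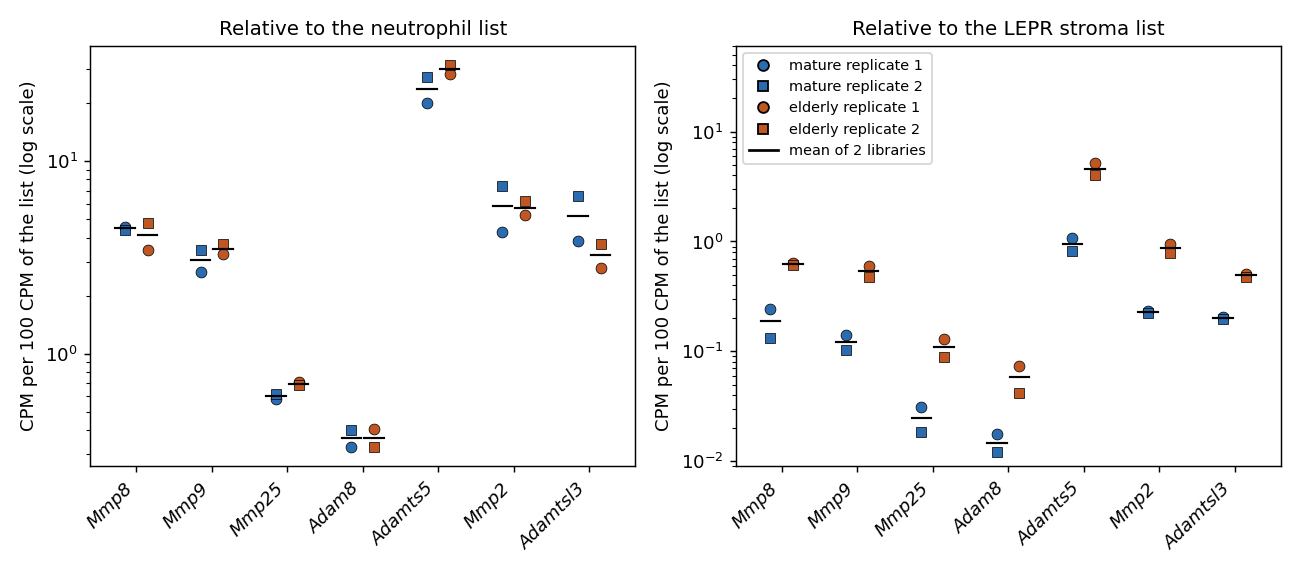
Level of the 7 members that rose, in CPM per 100 CPM of the neutrophil list (left) or of the LEPR+ stroma list (right), on log scales, with 1 point per library and a line at the mean. Relative to the stroma list each member is higher in both elderly libraries, which had to follow, since the list sum was lower in both. Relative to the neutrophil list the ages overlap for Mmp8, Mmp9, Adam8 and Mmp2.

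Other genes of the pathway were examined in a list of 87 activators, further inhibitors, surface partners, astacin proteases and substrates. Of 77 tested, 6 rose, against 1.94% of all genes tested, and 4 fell, against 0.423%, with a median log2 fold change of 0.02. Among inhibitors, A2m, which traps proteases of all classes, was at 506 and 830 CPM in mature and 17.7 and 59.6 CPM in elderly libraries. Both elderly libraries were far lower, with a log2 fold change of -4.10 and an adjusted p of 0.00109 by edgeR, but the robust fit gave an adjusted p of 0.377. Spock2, a secreted proteoglycan listed with the inhibitors, rose from 1.60 ± 0.423 to 6.93 ± 0.876 CPM (log2 fold change 2.11, adjusted p = 0.0206 by edgeR). Whether Spock2 inhibits these enzymes was not tested. Among substrates, Acan, the aggrecan gene and target of Adamts5, was at 10.1 and 14.3 CPM in mature and 0.451 and 0.716 CPM in elderly libraries, and it fell with a log2 fold change of -4.33 (adjusted p = 5.8e-04). Dcn (1.16, adjusted p = 0.0204), Col1a1 (0.91, 0.0257), Thbs1 (1.02, 0.0317) and Col2a1 (2.80, 0.0426), which code for matrix proteins, rose, where the first value is the log2 fold change and the second the adjusted p. Of the shed surface proteins, the adhesion molecule Icam1 rose (log2 fold change 0.85, adjusted p = 0.0324) and N-cadherin, Cdh2, fell (-1.16, adjusted p = 0.0142). Pcsk5, a proprotein convertase, fell (-1.13, adjusted p = 0.0365). Of these 10 genes, Acan and A2m passed without mature replicate 1, and the same genes with Spock2, Cdh2 and Col2a1 passed without mature replicate 2. Without elderly replicate 1 or 2 none passed, with adjusted p values of 0.611 and 0.605 for each.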

How the data were processed

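The authors removed adapters with cutadapt, mapped reads to NCBI Build 37 (mm9) with HISAT2, counted them with featureCounts, and the values they deposited are raw counts of reads per Ensembl transcript, without normalization or filter. The strand setting and the handling of shared bases are not given in the sources used here. Transcripts were matched to GENCODE M1 (388 of 95883 had no entry), and counts were summed per gene and library. All 25621 transcripts with no base of their own, on either strand, had 0 counts, so countable bases are the exonic bases covered by 1 transcript.

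Genes with more than 2 counts in all (22214) were normalized by TMM (factors 0.970, 0.990, 1.06 and 0.983) and tested with edgeR 4.0.16's quasi-likelihood test in R 4.3.3, two-sided, with Benjamini-Hochberg adjustment over all genes. The dispersion was estimated (common value 0.0703), whereas the study set it to 0.2 for an exact test, also tried here. SE is the log2 fold change divided by the root of F. DESeq2 1.42.0 and the other fits are described with their effect. In counts simulated for elderly against mature mice over 21461 genes, 89.7% of 87 genes changed 4-fold and 21.2% of 113 genes changed 2-fold were recovered.

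Groups came from the ages in the sample titles, and nothing says that equal replicate numbers share animals or a batch. The sources do not say whether the libraries of an age shared animals, so p-values measure only the spread between these libraries. Replicates differed beyond counting noise (chi-square per degree of freedom 16.1 and 34.2).

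Values are named for every member that passed the test, all Timp genes and Reck, the 3 members of each enzyme family with the highest mean CPM, and the pathway genes that passed, plus A2m. Members and lists were chosen with earlier results of these data known. The zinc site was searched in translated GENCODE M1 coding sequences, and the residue between the second and the third histidine was widened from glycine to glycine, asparagine or aspartate after a first look, since some Adamts genes lack the glycine.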

Additional observations from a re-analysis of the deposited data

How the results depend on the processing

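All 10 members that passed kept their sign under every alternative. With 1 library left out this was nearly fixed in advance, since the ages did not overlap in these members. Which of them passed depended on the test and on the libraries used. The number of members called higher, 7, was 0 with edgeR's exact test and a dispersion of 0.2 and ranged from 0 to 6 when 1 library was left out. The number called lower, 3, was 5 with DESeq2, with no filter, with the robust fit, at an adjusted p under 0.1 and with the replicate number as a block, 0 under the exact test, and from 0 to 2 when 1 library was left out. Under the exact test 6 members were higher and 2 lower at an unadjusted p under 0.05. The additional lower members were Adam12 and Mmp13. With all 4 libraries, the alternatives called between 0.806% and 4.33% of all features higher and between 0.131% and 1.41% lower. At transcript level Adamtsl3 (adjusted p = 0.0595) and Mmp16 (0.0565) no longer passed, and Adamtsl3 did not reach a log2 fold change of 1.

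In the pathway list, 6 genes higher became 2 under the exact test, 11 with no filter, 12 with the replicate block, and 0 to 3 with 1 library left out. The 4 lower became 2 under the exact test, and 0 to 3 with 1 library left out. The deviations of libraries with the same replicate number correlated at 0.0433 over 14400 genes, so the numbers were not taken as a pairing, and the block changed no member's call other than those of Adam12 and Mmp13.

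The Adamts median of -0.45 was -0.43 with TMM factors computed without immunoglobulin, hemoglobin and histone genes, -0.38 with edgeR's filterByExpr, -0.39 with library size only and -0.34 at transcript level, and ranged from -0.60 to -0.42 with 1 library left out. The Mmp median was 0.21 with no filter and the Adam median 0.064 at transcript level, and the median of the Timp genes with Reck was 0.24 with no filter. With 1 library left out the Adam median ranged from -0.34 to 0.19, the Adamtsl median from -0.23 to 0.44 and that of the Timp genes with Reck from -0.18 to 0.17. The cause of these shifts was not tested. Timp1, Reck and Adamtsl4 had only 60, 407 and 217 countable bases, and at the depth of these libraries 3 counts correspond to between 0.195 and 0.270 CPM.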
